A study of Homo sapiens with 8 samples.

Results

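The comparison set HaCaT keratinocytes that expressed the R820W form of CARD14 against cells that expressed the N737H form, both on a background without endogenous CARD14. It held 4 of the 8 libraries, 2 per variant, and covered every gene with at least 10 counts in at least 2 of the 4 libraries, which was 14480 of the 28518 genes in the table. Just inside that limit, 174 genes had a second-highest count of 10, and just outside it 224 genes had one of 9. HaCaT is an immortalised human keratinocyte line, and all 8 libraries came from a CARD14 knockout derivative of it. Per the labels, a plasmid coding for CARD14, a 2A peptide (a short viral sequence at which the ribosome releases one protein and starts the next) and eGFP was transfected at 9 ug per 10 cm dish. Medium was replaced after 2 h, and cells positive for GFP were sorted at 24 h. The groups were therefore knockout cells with R820W CARD14, with N737H CARD14, with I593T CARD14 and with wild-type (WT) CARD14, and they differed only in the plasmid. The series describes the 3 variants as hypomorphic. The model carried short-term expression from a plasmid in a single line, whether that line was 1 clone is not given, and knockout cells without plasmid were not analysed here. Each group had a library A and a library B, and the letters were read as the 2 independent experiments that the series mentions, although no label ties them together.

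CARD14 is a scaffold protein of keratinocytes. When active it assembles with BCL10 and the protease MALT1 and passes a signal to the NF-kB transcription factors and to stress kinases. NF-kB drives genes for chemokines, cytokines and adhesion molecules, and its feedback inhibitors such as A20 (TNFAIP3) limit the response. Activating CARD14 alleles are known from psoriasis, a disease in which keratinocytes produce chemokines, IL-36 cytokines and proteins of early cornification.

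Total counts were 24149631 and 17892608 in R820W A and B, against 20792724 and 18878300 in N737H A and B. The N737H B library stood apart, with a count in 21059 genes against 17836 to 18855 in the other 7 libraries. The edgeR calls are given below with and without it, while DESeq2 was run only with it. No library pair agreed within sampling noise. The 5 keratinocyte markers summed to 5460 and 4788 CPM (counts scaled to normalised library size) with R820W and to 3907 and 3225 CPM with N737H. They summed to 3985 and 4610 CPM with I593T and to 4342 and 5412 CPM with WT, and all 5 had a fitted fold change above 0 between R820W and N737H. The 5 leukocyte markers summed to 69.3 and 76.2 CPM with R820W against 51.5 and 56.9 CPM with N737H, nearly all of it from CD68, with PTPRC at no more than 0.197 CPM in any library. Among the markers of other cell types, TYR was at 0 in all 8 libraries and CD3E was at 0 in the 4 compared. The 5 melanocyte markers summed to 10.4 and 9.74 CPM with R820W against 9.72 and 13.6 CPM with N737H. Most of that was MITF, at 7.59 and 6.67 CPM against 7.70 and 10.8 CPM. The 3 endothelial markers summed to 1.72 and 1.78 CPM against 1.28 and 2.78 CPM. Of the 4 fibroblast markers, 0 met the limit on counts. The part of these marker differences in the results that follow was not tested. In bulk RNA a different share of cells that express a gene and a different amount of RNA per cell cannot be told apart.

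CARD14 itself reached 1179 and 1397 CPM in R820W A and B, against 452 and 995 CPM in N737H A and B. N737H A was thus the lowest of the 4 libraries. The fitted log2 fold change was 0.93 ± 0.37 (SE, 2 libraries per group) with an adjusted p of 0.999 in edgeR's quasi-likelihood test, and the unadjusted p was 0.0368. Transcripts from the plasmid cannot be told apart from those of the edited locus in these counts. CARD14 RNA was thus more abundant with R820W in both letters, and its part in the results below was not tested. CARD14 had 504 and 1382 CPM with I593T and 1119 and 998 CPM with WT. MYC, the growth-promoting transcription factor, had 781 and 696 CPM with R820W against 752 and 634 CPM with N737H. Its log2 fold change was 0.09 ± 0.14 with a 95% interval of -0.24 to 0.43.

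R820W and N737H differed past the threshold in 1 gene, the chemokine CCL4L2, which rose with R820W. That is 0.00691% of the genes tested at an adjusted p under 0.05 in edgeR with the letter as a block, and 0 genes (0%) were lower. At an unadjusted p under 0.05 there were 456 genes (3.15%), fewer than the 724 that chance alone gives, of which 339 (2.34%) were higher and 117 (0.808%) lower. The count moved with the fit: DESeq2 with the same terms called 30 genes higher (0.251%) and 1 lower (0.00837%), and edgeR on the 4 libraries alone with the block called 82 higher (0.566%) and 10 lower (0.0691%). Without the block edgeR called 0 genes, with 203 at an unadjusted p under 0.05 and 31 genes called by DESeq2 with the block. Leaving out R820W A, R820W B, N737H A, N737H B, I593T A or I593T B also gave 0 calls in edgeR, with 155, 181, 1339, 338, 418 and 360 genes in that order at an unadjusted p under 0.05, while leaving out WT A gave 4 and WT B gave 6. Beyond CCL4L2, the genes below are therefore described by their values. Counts per gene list below stand against these shares over all genes. They are 2.34% higher and 0.808% lower at an unadjusted p under 0.05, and 0.251% higher and 0.00837% lower in DESeq2.

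The differences between R820W and N737H were centred near 0, with a median log2 fold change of -0.037 over the genes tested, and 43.3% of genes lay above 0. Within letter A the median difference was -0.027, and within letter B it was -0.0017. Larger differences leaned to higher levels with R820W. Of the 14480 genes tested, 25 (0.173%) had a mean of at least 5 CPM and a fitted log2 fold change above 1. With the same minimum level, 5 (0.0345%) had a log2 fold change below -1. Both R820W libraries lay above both N737H libraries for 13.6% of genes and below them for 14.3%. The 2 letters gave the same direction for 51.3% of genes, higher with R820W in 23.7% and lower in 27.7%. Over all genes tested, the differences within A and within B were nearly uncorrelated (Pearson r -0.014, Spearman rho 0.037). Among genes with a mean of at least 5 CPM the Pearson r was 0.23.

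**Figure D1:**
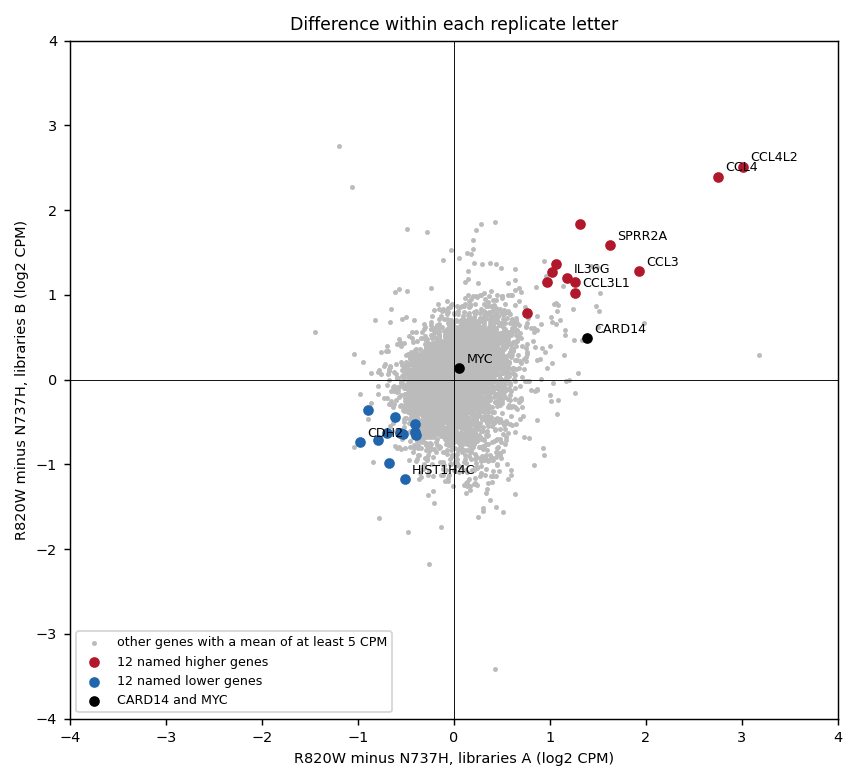
Difference in log2 CPM between R820W and N737H within letter A (x axis) and within letter B (y axis), 1 point per gene with a mean of at least 5 CPM, with the named genes marked. The cloud of all genes is centred near 0 on both axes, and the 12 named genes that were higher with R820W and the 12 that were lower lie on the same side of 0 in both letters, which is how they were chosen.

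The chemokine genes of the CC class, secreted attractants of monocytes, T cells and dendritic cells, leaned to higher levels with R820W. All 11 tested members had a fitted log2 fold change above 0, with a median of 0.98 against -0.037 for all genes. Within letter A the median was 0.86 and within letter B it was 1.09. Without N737H B the median was 0.92. CCL4L2 passed the edgeR threshold. DESeq2 called 5 members higher, against 0.251% of the genes it tested. These were only the CCL3 and CCL4 genes and their copies (CCL4L2, CCL4, CCL3, CCL3L1 and CCL3L3). Within both letters 8 of the 11 were higher, against 23.7% of all genes. In 6 members both R820W libraries lay above both N737H libraries, against 13.6% of all genes. CCL4L2 codes for a near-identical copy of CCL4 (MIP-1 beta), an attractant of monocytes and T cells. It had 68.9 and 21.3 CPM in R820W A and B, against 8.48 and 3.65 CPM in N737H A and B. The groups did not overlap, and the A library was the higher one in both. The log2 fold change was 2.80 ± 0.21 with a 95% interval of 2.31 to 3.29 and an adjusted p of 0.0298 in edgeR. Leaving out 1 library at a time kept the fold change between 2.50 and 3.08. The adjusted p was over the threshold without R820W A, R820W B, N737H A, N737H B, I593T A or I593T B, at 0.0838 to 1.00 (0.198 without N737H B), and at 0.00445 without WT A and 0.000515 without WT B. CCL4L2 had 9.67 and 4.61 CPM with I593T and 17.96 and 8.18 CPM with WT.

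CCL4 showed 19.5 and 9.36 CPM with R820W against 2.81 and 1.70 CPM with N737H, a log2 fold change of 2.65 ± 0.35 with an adjusted p of 0.40 in edgeR. CCL4 and CCL4L2 transcripts in GENCODE v29 share part of their sequence. Of the distinct 50-base stretches, 20.1% of those in CCL4 and 10.2% of those in CCL4L2 occur in both. Reads can therefore have been split between the 2 genes in a way that is not recorded. Their summed level was 88.5 and 30.6 CPM with R820W and 11.3 and 5.36 CPM with N737H, again without overlap. The sum had a log2 fold change of 2.77 ± 0.24 and missed the edgeR threshold with an adjusted p of 0.0871. CCL3 (MIP-1 alpha, a ligand of CCR1) had 162 and 63.5 CPM with R820W against 42.6 and 26.1 CPM with N737H. The log2 fold change was 1.63 ± 0.22 with an adjusted p of 0.40. The copy CCL3L1 had 302 and 100 CPM against 126 and 49.1 CPM, with R820W B below N737H A. The gene's log2 fold change was 1.15 ± 0.18 with an adjusted p of 0.524. Summed with CCL3L3, the CCL3 genes reached 479 and 169 CPM with R820W and 174 and 77.2 CPM with N737H, a log2 fold change of 1.31 ± 0.18 with an adjusted p of 0.477. The letter difference was large in these genes, and the groups overlapped in the sum while each letter on its own showed the higher level with R820W. CCL5 (RANTES), an abundant member, had 274 and 203 CPM with R820W against 169 and 138 CPM with N737H, with a log2 fold change of 0.63 ± 0.31. CCL20, the ligand of CCR6 and named here after its values were seen, had 11.1 and 9.63 CPM against 6.12 and 4.48 CPM, with a log2 fold change of 0.98 ± 0.19 and an adjusted p of 0.668.

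A chemokine, an IL-36 and an SPRR gene are shown by the sequence around their start, because these families hold most of the named higher genes. Each window runs from 250 bases before to 50 bases after the start, 5′ to 3′ on the gene's strand, from RefSeq on GRCh38.p14. The counts rest on hg19, and no coordinate was carried between the builds. CCL3 lies at chr17:36090094-36090393 on the minus strand, IL36G at chr2:112977756-112978055 on the plus strand and SPRR2A at chr1:153057463-153057762 on the minus strand. Capitals mark matches to TATAAA or to the AP-1 motif TGANTCA, which were searched together with the kappaB consensus on both strands.
CCL3: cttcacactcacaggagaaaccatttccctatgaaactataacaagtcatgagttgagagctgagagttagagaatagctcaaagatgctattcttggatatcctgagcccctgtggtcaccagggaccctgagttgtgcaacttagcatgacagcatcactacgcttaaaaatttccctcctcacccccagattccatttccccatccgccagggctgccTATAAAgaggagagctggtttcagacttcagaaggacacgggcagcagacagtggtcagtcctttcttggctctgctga
IL36G: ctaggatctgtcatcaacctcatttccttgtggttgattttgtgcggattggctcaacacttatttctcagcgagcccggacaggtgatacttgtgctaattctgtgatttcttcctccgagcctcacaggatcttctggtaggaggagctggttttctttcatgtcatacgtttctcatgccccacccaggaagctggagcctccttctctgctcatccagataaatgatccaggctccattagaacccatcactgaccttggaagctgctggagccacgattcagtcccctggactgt
SPRR2A: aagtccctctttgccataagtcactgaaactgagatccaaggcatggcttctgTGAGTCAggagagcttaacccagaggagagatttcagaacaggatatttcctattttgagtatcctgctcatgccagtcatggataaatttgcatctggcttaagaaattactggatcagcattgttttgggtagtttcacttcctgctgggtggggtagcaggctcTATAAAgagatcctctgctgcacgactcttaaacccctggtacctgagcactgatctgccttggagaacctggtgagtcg
In CCL3 the TATAAA match starts at -29 from the gene start. SPRR2A holds TGAGTCA at -197 and TATAAA at -30, and in the IL36G window none of the 3 motifs was found. Of the 12 named higher genes 7 were in the promoter table, of which 2 held the AP-1 motif, 2 held TATAAA and 0 held the kappaB consensus. Of the 12 named lower genes 9 were in the table, of which 0 held the AP-1 motif, 0 held TATAAA and 1 held the kappaB consensus. Among all 27305 promoters in the table, 7.76% held the AP-1 motif, 11.95% TATAAA and 10.8% the kappaB consensus.

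The CXC chemokines, which mainly attract neutrophils and activated T cells, had smaller differences. Of 9 tested, 8 lay above 0 with a median log2 fold change of 0.26. None passed the edgeR threshold, 1 had an unadjusted p under 0.05, and DESeq2 called 0. The abundant neutrophil attractant IL8 (CXCL8) had 384 and 165 CPM with R820W against 298 and 118 CPM with N737H. The fitted log2 fold change of 0.43 ± 0.23 had a 95% interval that reached from -0.10 to 0.96. CXCL1 had 394 and 235 CPM against 325 and 198 CPM, and a log2 fold change of 0.26 ± 0.14. For both genes the letters differed more than the variants did.

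In the IL-1 and IL-36 family, 11 of 13 tested genes lay above 0, with a median of 0.17, which was 0.32 without N737H B and 0.11 without N737H A. None passed the edgeR threshold, 3 had an unadjusted p under 0.05, and DESeq2 called 1. IL36G, the keratinocyte cytokine IL-36 gamma, stood highest. It had 34.1 and 22.0 CPM with R820W against 15.0 and 9.54 CPM with N737H. The groups did not overlap, the log2 fold change was 1.19 ± 0.16, and the adjusted p of 0.40 missed the edgeR threshold, while DESeq2 called the gene. IL1RN, which codes for the IL-1 receptor antagonist, had 244 and 366 CPM with R820W against 188 and 252 CPM with N737H (log2 fold change 0.45 ± 0.18). IL1B had 275 and 153 CPM against 188 and 150 CPM, so the difference lay in letter A, with a log2 fold change of 0.28 ± 0.25.

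Of 22 other secreted cytokines and growth factors, 15 lay above 0, with a median of 0.15, which was 0.24 to 0.31 when any 1 of the 4 libraries compared was left out. None passed the edgeR threshold, 6 had an unadjusted p under 0.05 (5 higher and 1 lower), and DESeq2 called 1. CSF3 (G-CSF, the growth factor of neutrophil precursors) had 18.3 and 18.8 CPM with R820W against 8.98 and 7.74 CPM with N737H. Its replicates lay close together, and the log2 fold change was 1.16 ± 0.19 with an adjusted p of 0.524. TGFA, an abundant member, had 167 and 105 CPM against 134 and 104 CPM (log2 fold change 0.16 ± 0.20). INHBA, the activin A subunit, had 111 and 51.8 CPM against 75.7 and 46.3 CPM (0.34 ± 0.30 on the same scale). TNF and IL23A, cytokines of the psoriatic axis named after their values were seen, each had a log2 fold change of 0.40. TNF had 37.6 and 22.0 CPM with R820W against 30.6 and 15.4 CPM with N737H, and IL23A had 57.3 and 26.3 CPM against 41.4 and 20.9 CPM, both with adjusted p of 0.999.

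**Figure D2:**
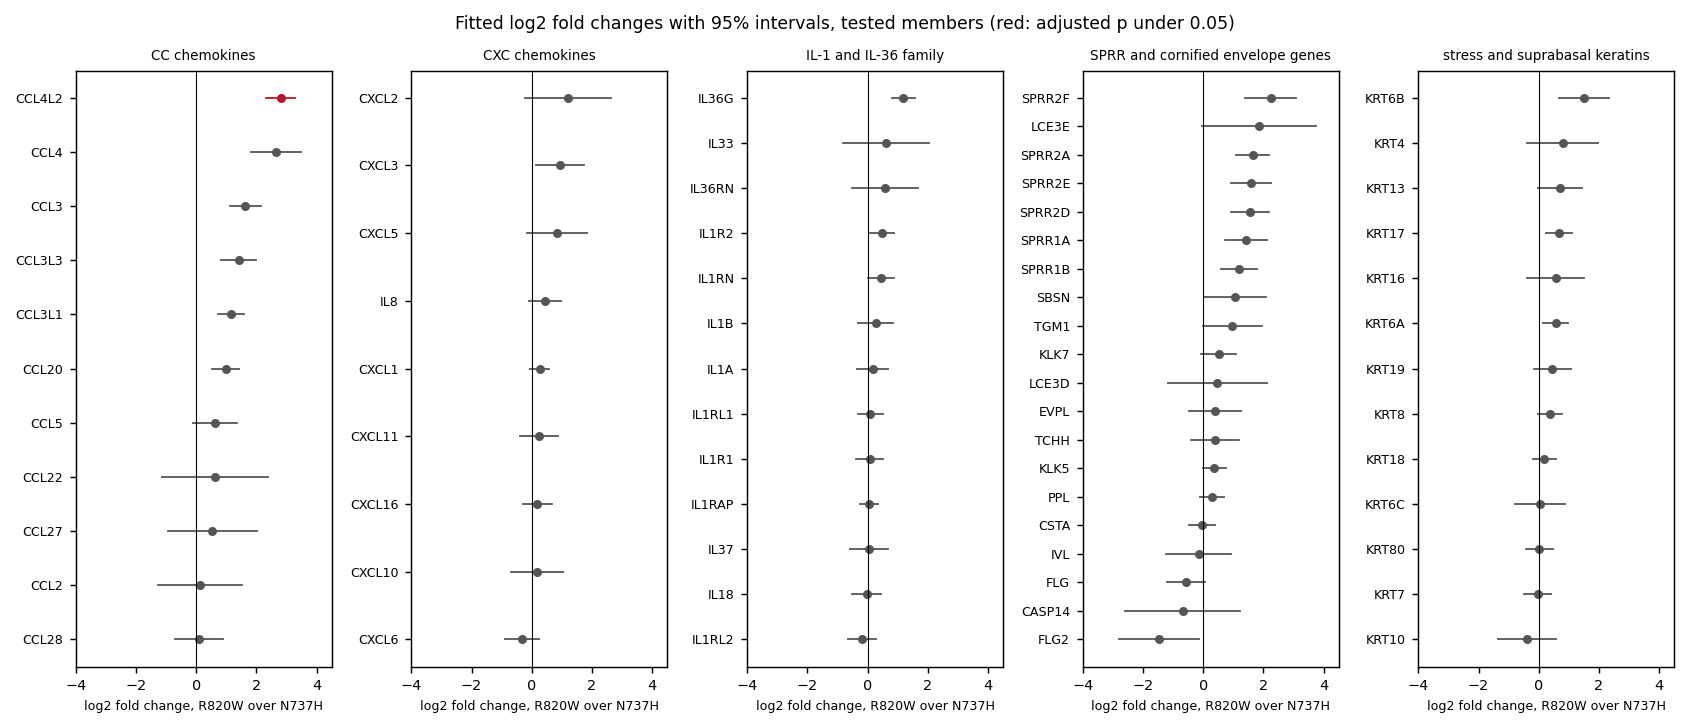
Fitted log2 fold change of R820W over N737H for each tested member of the CC chemokine, CXC chemokine, IL-1 and IL-36, cornified envelope and stress keratin lists, 1 point per gene with its 95% interval as a line and the gene past the threshold in red. The 11 CC chemokine genes all lie above 0 with a median of 0.98, and CCL4L2 at 2.80 is the gene that passed the threshold.

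In the signalling chain between CARD14 and NF-kB, no RNA passed the edgeR threshold. Among 27 tested partners, such as BCL10, MALT1 and the TRAF adaptors, 18 lay above 0 with a median log2 fold change of 0.087. Among 15 NF-kB subunits and feedback inhibitors, 10 lay above 0 with a median of 0.096. That second median was 0.090 within letter A and 0.38 within letter B, and it was 0.27 without N737H A and 0.22 without R820W A, while the partners had 0.045 without R820W A and 0.19 without R820W B. Neither list had a member past the edgeR threshold or called by DESeq2, and 1 partner and 2 members of the NF-kB list had an unadjusted p under 0.05. The lists overlap, with TNFAIP3 and TNIP1 on both, and TNIP1 was the 1 partner and also 1 of the 2 NF-kB members. TNFAIP3 had 340 and 220 CPM with R820W against 180 and 170 CPM with N737H, a log2 fold change of 0.62 ± 0.35. TNIP1, a partner of A20, had 188 and 163 CPM against 142 and 84.7 CPM, and a log2 fold change of 0.66 ± 0.17. Both feedback genes were higher with R820W in both letters without overlap, at adjusted p of 0.999.

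NF-kB targets of survival, adhesion and oxidant defence leaned further, with 15 of 18 above 0 and a median of 0.36. That median was 0.16 within letter A and 0.41 within letter B, and it was 0.20 without N737H B. None passed the edgeR threshold, 6 had an unadjusted p under 0.05, and DESeq2 called 2. In 10 of them both R820W libraries lay above both N737H libraries, against 13.6% of all genes. TRAF1, an adaptor that is induced by NF-kB, had 29.7 and 9.20 CPM with R820W against 14.2 and 3.51 CPM with N737H. Its groups overlapped across letters, its log2 fold change was 1.20 ± 0.20, and its adjusted p was 0.524. ICAM1, the leukocyte adhesion molecule, named after its values were seen, had 40.6 and 39.0 CPM against 25.4 and 18.3 CPM. Its groups did not overlap, and the log2 fold change was 0.88 ± 0.17 with an adjusted p of 0.671. SOD2, the mitochondrial superoxide dismutase, had 293 and 356 CPM against 229 and 195 CPM (0.61 ± 0.18), and the syndecan SDC4 had 805 and 633 CPM against 747 and 439 CPM (0.31 ± 0.17).

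Genes of the cornified envelope, the protein shell that differentiating keratinocytes build under the plasma membrane, had a median log2 fold change of 0.49. Of 20 tested, 15 lay above 0 and 0 passed the edgeR threshold. At an unadjusted p under 0.05, 7 were higher and 1 lower, against 2.34% and 0.808% of all genes. DESeq2 called 6 higher, against 0.251% of the genes it tested. All 6 were SPRR genes (SPRR2A, SPRR2D, SPRR2E, SPRR2F, SPRR1A and SPRR1B). Leaving out 1 library at a time moved the median of the list between 0.33 (without R820W A) and 0.78 (without R820W B). The differences were led by the small proline-rich proteins (SPRR), substrates that transglutaminases cross-link into the shell. SPRR2A had 15.2 and 5.17 CPM with R820W against 4.88 and 1.66 CPM with N737H. Its groups did not overlap, its log2 fold change was 1.64 ± 0.23, and its adjusted p was 0.43. SPRR2D had 10.8 and 4.25 CPM against 4.29 and 1.12 CPM, with R820W B just below N737H A, and its log2 fold change was 1.56 ± 0.27 with an adjusted p of 0.524. The 7 SPRR2 genes are close copies, and 32.7% of the distinct 50-base stretches in SPRR2A transcripts also occur in other members. Summed, the 7 genes reached 39.7 and 16.1 CPM with R820W and 13.8 and 4.38 CPM with N737H. The sum had a log2 fold change of 1.69 ± 0.18 and an adjusted p of 0.147 in edgeR. SPRR1A and SPRR1B, named after their values were seen, had log2 fold changes of 1.42 ± 0.30 and 1.19 ± 0.26, each with an adjusted p of 0.941. The more abundant members of the list differed less. KLK5, a protease of the cornified layer, had 99.1 and 125 CPM against 74.6 and 100.2 CPM (0.37 ± 0.16). CSTA, the protease inhibitor cystatin A, had 67.5 and 67.8 CPM against 73.3 and 65.4 CPM (-0.04 ± 0.18).

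The keratins and adhesion genes lay mostly above 0 by smaller amounts. On the list of stress and suprabasal keratins, 11 of 13 were above 0 with a median of 0.45. That list also held the simple-epithelium keratins KRT8 and KRT18. Among 17 basal keratin and hemidesmosome genes, 16 were above 0 with a median of 0.25. None of them passed the edgeR threshold, 3 of the 13 and 4 of the 17 had an unadjusted p under 0.05, and DESeq2 called 0 of the 13 and 1 of the 17. Without N737H B the medians were 0.26 for the stress keratin list and 0.35 for the basal list, and without R820W A the stress keratin list had 0.23. KRT17, a keratin of wounded and psoriatic epidermis, had 1967 and 1588 CPM with R820W against 1226 and 1018 CPM with N737H. The groups did not overlap, and the log2 fold change was 0.66 ± 0.19 with an adjusted p of 0.999. KRT14, the basal keratin, had 1536 and 1220 CPM against 1074 and 864 CPM (0.51 ± 0.17). KRT15, another basal keratin, named after its values were seen, had 125 and 130 CPM against 56.4 and 60.1 CPM. Its log2 fold change was 1.13 ± 0.21 with an adjusted p of 0.561. KRT8 and KRT18, the most abundant on the stress and suprabasal list, had log2 fold changes of 0.36 ± 0.17 and 0.18 ± 0.16. LAMA3, a chain of laminin-332, had 2600 and 1342 CPM against 1674 and 1296 CPM. Its groups overlapped, and nearly all of the difference lay in letter A.

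Junction genes followed the same lean, with 21 of 26 above 0, a median of 0.19 and 0 past the edgeR threshold, 6 at an unadjusted p under 0.05 and 0 called by DESeq2. In 12 of them both R820W libraries lay above both N737H libraries, against 13.6% of all genes. DSP, the plaque protein desmoplakin, had 568 and 483 CPM with R820W against 424 and 393 CPM with N737H (0.36 ± 0.13), and the tight-junction gene CLDN4 had 673 and 539 CPM against 502 and 353 CPM (0.51 ± 0.20). Of 6 tested CEACAM genes, which code for cell-surface adhesion proteins, 4 lay above 0 and 2 below, down to -1.51, with a median of 0.63. None passed the edgeR threshold. At an unadjusted p under 0.05, 4 were higher, against 2.34% of all genes, and DESeq2 called 1. CEACAM6 had 34.5 and 69.3 CPM against 12.04 and 39.3 CPM, with R820W A below N737H B. The log2 fold change was 1.15 ± 0.20 with an adjusted p of 0.524. CEACAM1 had 65.4 and 96.0 CPM against 49.3 and 61.2 CPM (0.53 ± 0.19). CEACAM1 and CEACAM6 were higher in letter B than in letter A, the reverse of the CCL3 and CCL4 genes.

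Extracellular proteolysis genes were led by PLAU, the urokinase plasminogen activator, with 943 and 525 CPM under R820W against 554 and 305 CPM under N737H. The gene's log2 fold change was 0.78 ± 0.13 with an adjusted p of 0.524, and each R820W library exceeded its own letter's N737H library. Of 7 tested plasminogen activator genes and inhibitors, 6 lay above 0 with a median of 0.34. SERPINB2, the urokinase inhibitor PAI-2, had 3154 and 1659 CPM against 1904 and 1405 CPM (0.48 ± 0.22). Of 15 matrix metalloproteinase genes and inhibitors, 12 lay above 0 with a median of 0.16 (0.087 without R820W A and 0.35 without N737H A), but the collagenase MMP1, the abundant one, had 608 and 783 CPM against 500 and 904 CPM. The fitted log2 fold change of 0.02 ± 0.23 had opposite signs in the 2 letters. Of 16 S100, antimicrobial and alarmin genes, 13 lay above 0 with a median of 0.23. LCN2, the iron-scavenging lipocalin, named after its values were seen, had 56.3 and 52.7 CPM against 36.1 and 25.2 CPM (0.84 ± 0.18, adjusted p 0.941). None of the genes on these 3 lists passed the edgeR threshold. At an unadjusted p under 0.05 they had 3, 1 and 2 members in that order, and DESeq2 called 1, 0 and 1. The median of the S100 list was 0.022 without N737H B and 0.55 without N737H A.

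The remaining named higher genes belonged to none of these families. DNTTIP1, a subunit of a mitotic histone deacetylase complex, had 27.6 and 19.9 CPM with R820W against 11.4 and 8.91 CPM with N737H. Its groups did not overlap, and the log2 fold change was 1.22 ± 0.17 with an adjusted p of 0.43. SDCBP2 (syntenin-2, a PDZ-domain protein that binds phosphoinositides) had 30.9 and 20.1 CPM against 15.7 and 8.96 CPM, a log2 fold change of 1.06 ± 0.18 and an adjusted p of 0.524. All 12 named higher genes were called by DESeq2, against 0.251% of the genes it tested. They were also called by edgeR on the 4 libraries alone, against 0.566% of all genes. Both fits reuse the counts on which the 12 were chosen for small p, so these calls are not separate support. In 12 of the 12 the N737H mean lay below the WT mean, and in 10 of the 12 the R820W mean lay above it. The genes were chosen on the contrast of R820W with N737H, so these counts are a description of where WT fell.

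**Figure D3:**
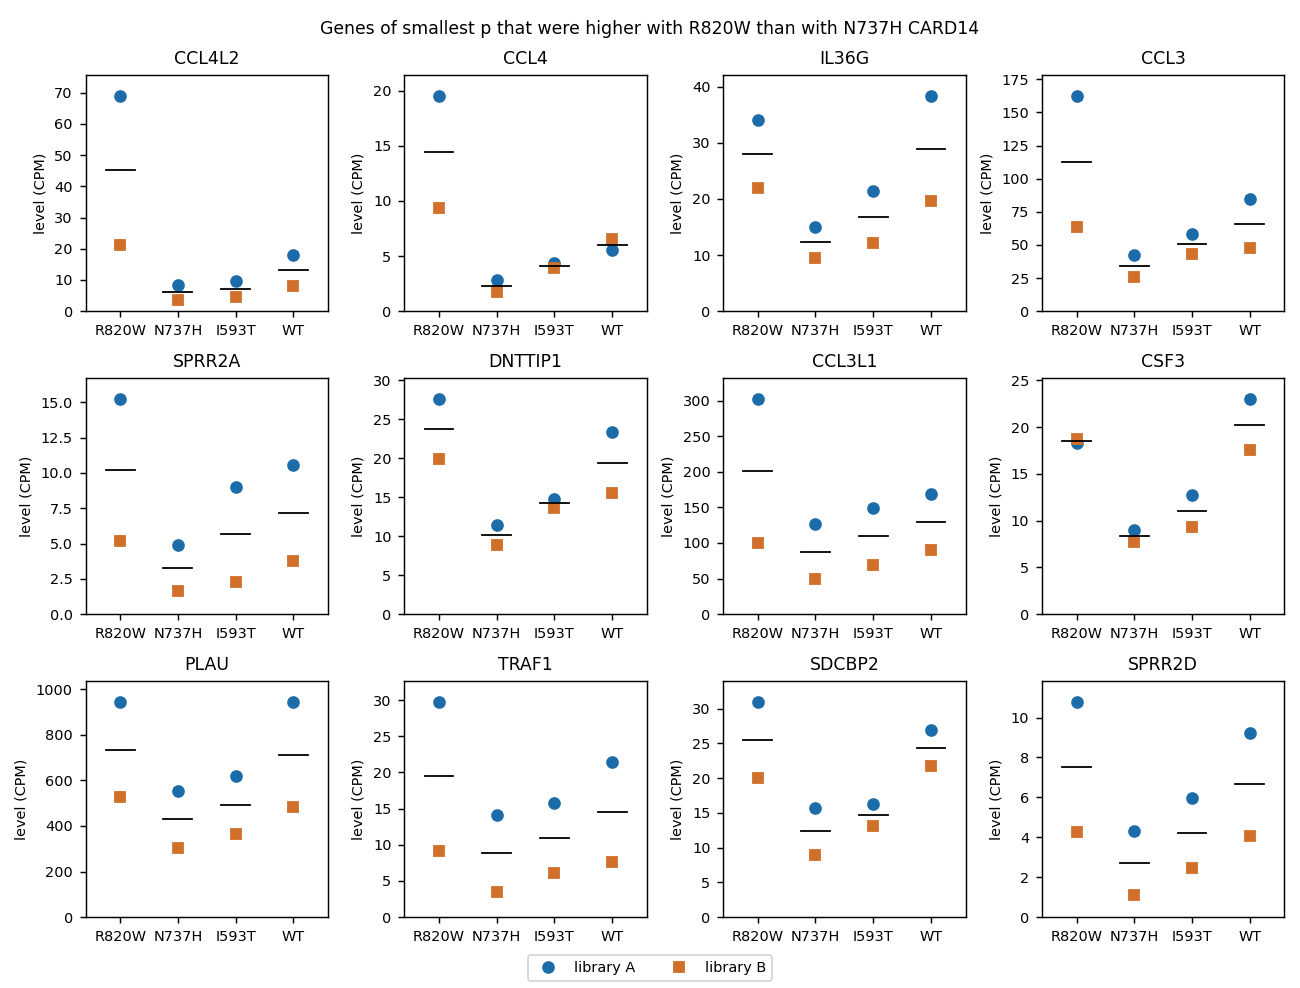
Level in CPM (y axes, from 0) of the 12 named genes with higher levels under R820W, in all 8 libraries, with a symbol for each library by letter and a line at each group's mean. R820W stands left of N737H, with I593T and WT beside them, and for CCL4L2 the 2 R820W libraries (68.9 and 21.3 CPM) lie above the 2 N737H libraries (8.48 and 3.65 CPM).

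Genes of AP-1 and the immediate-early response had 17 of 23 members above 0 and a median of 0.33, with 0 past the edgeR threshold, 4 at an unadjusted p under 0.05 and 0 called by DESeq2. In 11 of them both R820W libraries lay above both N737H libraries, against 13.6% of all genes. FOS, an AP-1 subunit, had 298 and 424 CPM with R820W against 222 and 117 CPM with N737H. The difference was larger in letter B, and the log2 fold change was 1.02 ± 0.49 with a 95% interval of -0.13 to 2.17. FOSL1, another subunit, had 301 and 273 CPM against 236 and 399 CPM, so the letters went opposite ways and the fitted value was -0.13 ± 0.47. Of 10 EGF receptor family genes and ligands, 9 lay above 0 with a median of 0.31 (0.16 without N737H A), 0 past the threshold, 1 at an unadjusted p under 0.05 and 0 called by DESeq2. The ligand gene HBEGF had 128 and 90.4 CPM against 70.1 and 60.2 CPM, a log2 fold change of 0.72 ± 0.25 with an adjusted p of 0.999. The MAPK feedback genes had 7 of 17 above 0 and a median of -0.031, which was 0.21 without N737H B, 0.060 without R820W B and above 0 without WT A and without the filter on low counts as well. None of them passed the edgeR threshold, 1 higher and 1 lower gene had an unadjusted p under 0.05, and DESeq2 called 0. DUSP10, their most abundant member, had 476 and 453 CPM against 482 and 443 CPM.

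MYC-related genes and growth genes had medians near 0. Of 12 genes of the MYC, MAX and MXD network, 7 lay above 0 with a median of 0.041. MAX, the partner of MYC, had 211 and 219 CPM with R820W against 256 and 208 CPM with N737H. On the list of ribosome biogenesis genes downstream of MYC, 10 of 34 lay above 0 with a median of -0.083. This list also held genes of other functions, among them its most abundant members LDHA and HSPD1. Among 79 cytosolic ribosomal protein genes, 15 lay above 0 with a median of -0.11. That ribosomal protein median turned to 0.14 without N737H A and to 0.028 without R820W B, and stayed below 0 in the other fits run, the other scaling included. Both R820W libraries lay below both N737H libraries for 38 of the 79, against 14.3% of all genes, and for 0 of the 79 was the reverse seen. RPL7, among the most abundant of them, had 2340 and 2086 CPM against 2623 and 1984 CPM (-0.05 ± 0.14). Of 17 heat-shock genes, 3 lay above 0 with a median of -0.16, and HSP90AB1, the most abundant, had 4014 and 3492 CPM against 4447 and 3493 CPM. Of 38 cell-cycle and replication genes, 12 lay above 0 with a median of -0.027, which turned to 0.12 without N737H A and also changed sign without WT A, without the filter on low counts and on the 4 libraries alone with the block. None of the genes on these 5 lists passed the edgeR threshold or was called by DESeq2. An unadjusted p under 0.05 was seen for 1 MYC network gene and 1 gene of the ribosome biogenesis list.

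Of 23 p53 targets, 17 lay above 0 with a median of 0.17, which was 0.39 without N737H A and 0.33 without R820W B. None passed the edgeR threshold, 2 had an unadjusted p under 0.05, and DESeq2 called 1. CDKN1A, the cell-cycle inhibitor p21, named after its values were seen, had 353 and 326 CPM with R820W against 221 and 171 CPM with N737H. Its groups did not overlap, and its log2 fold change was 0.80 ± 0.14 with an adjusted p of 0.524. SFN, the epithelial 14-3-3 sigma protein, had 1288 and 1285 CPM against 967 and 797 CPM (0.54 ± 0.20). Of 43 interferon-stimulated genes, 34 lay above 0 but with a median of only 0.084, and the antiviral gene IFIT3 had 1938 and 2701 CPM against 2058 and 2376 CPM. The letters disagreed in sign there, with a median of -0.0018 within A and 0.20 within B, and the fitted median was 0.0066 without N737H B and 0.29 without N737H A. Respiratory chain genes (38 tested, median -0.036) and proteasome genes (31 tested, median -0.012) likewise had medians below 0 within A and above 0 within B. Without N737H A their fitted medians were 0.20 and 0.21, and without N737H B they were -0.27 and -0.14. Those 3 lists had 0 members past the edgeR threshold, 0 at an unadjusted p under 0.05 and 0 called by DESeq2.

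**Figure D4:**
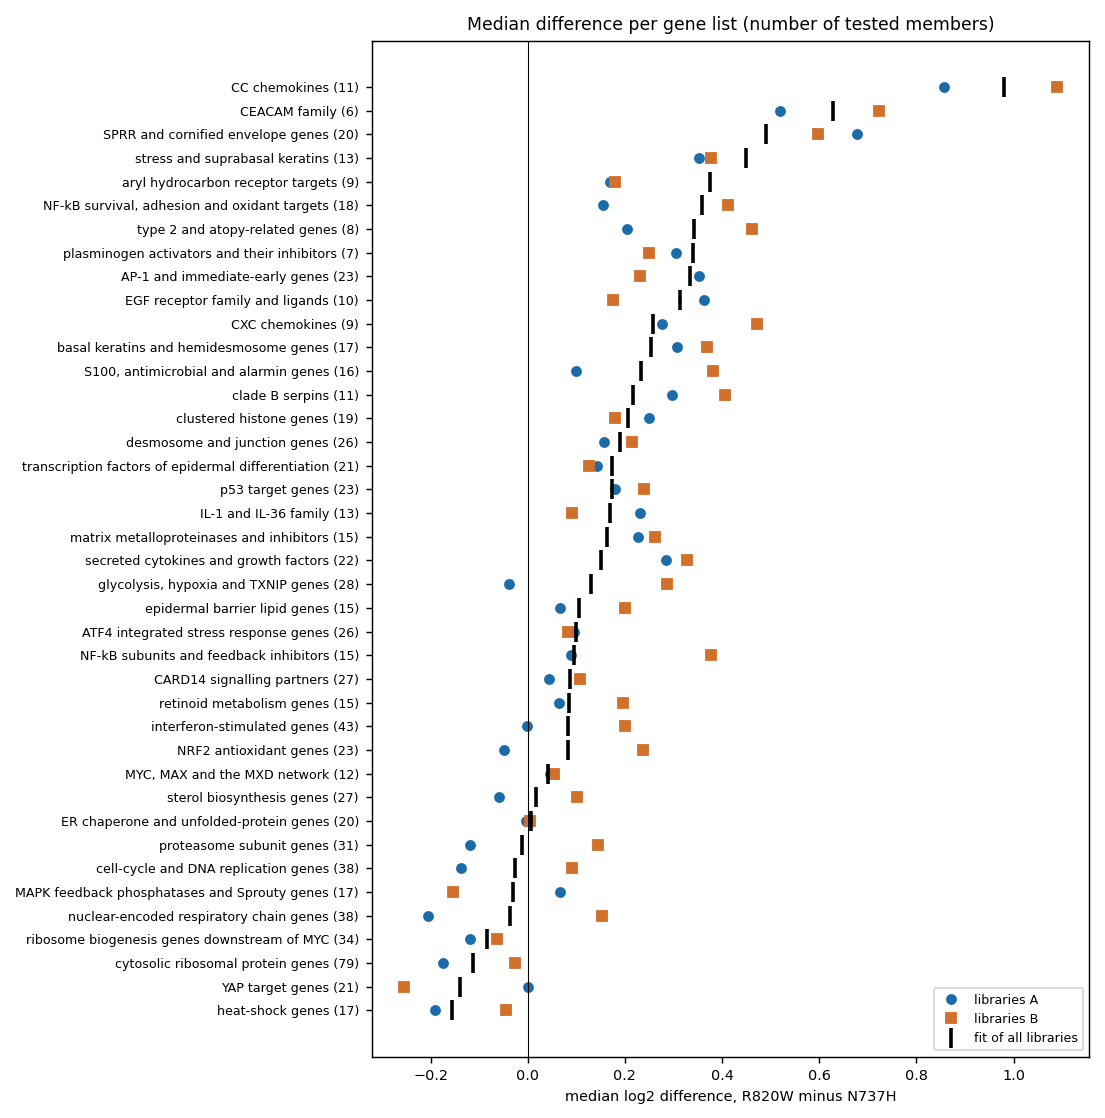
Median log2 fold change of R820W over N737H for each gene list, with the median of the differences within letter A and within letter B as separate symbols. CC chemokines stand at the top with 0.98, cornified envelope genes have 0.49, and ribosomal protein (-0.11) and heat-shock genes (-0.16) lie below the median of all genes (-0.037).

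Lower levels with R820W were smaller in size. None of the 12 named lower genes passed the edgeR threshold, DESeq2 called CDH2, and edgeR on the 4 libraries alone called CDH2, AXL and HIST1H4C. CDH2, the gene of N-cadherin, an adhesion protein of mesenchymal and neural cells, had 19.8 and 9.42 CPM with R820W against 39.1 and 15.8 CPM with N737H. The groups overlapped across letters, while within each letter the R820W library was the lower one. Its log2 fold change was -0.87 ± 0.15 with an adjusted p of 0.524. RGS7, a regulator of G-protein signalling, had 7.15 and 7.59 CPM against 11.4 and 15.1 CPM, a log2 fold change of -0.84 ± 0.21. The homeobox gene IRX2 had 4.98 and 4.47 CPM against 8.68 and 7.35 CPM (-0.76 ± 0.20). In both genes the groups did not overlap, at an adjusted p of 0.999.

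AXL, the receptor tyrosine kinase for GAS6, was the most abundant receptor among the lower genes, with 196 and 178 CPM against 284 and 279 CPM. Its replicates lay close together, and the log2 fold change was -0.59 ± 0.17 with an adjusted p of 0.999. CRIM1, a transmembrane regulator of BMP ligands, had 52.8 and 47.4 CPM against 69.2 and 74.4 CPM (-0.52 ± 0.16). AXL and CRIM1 are on the list of YAP targets, of which 7 of 21 lay above 0 with a median of -0.14. Within letter A the YAP median was 0.0002 and within letter B it was -0.25, and without N737H B the fitted median was 0.018. The abundant YAP targets F3 and MYOF had log2 fold changes of -0.19 ± 0.20 and 0.12 ± 0.12, and 0 of the 21 passed the edgeR threshold, with 1 higher and 4 lower at an unadjusted p under 0.05 and 0 called by DESeq2.

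HIST1H4C, a replication-linked histone H4 gene, had 175 and 279 CPM with R820W against 249 and 629 CPM with N737H. Most of the difference lay in letter B, and the log2 fold change was -0.80 ± 0.27 with an adjusted p of 0.999. Of 19 clustered histone genes, 14 lay above 0 with a median of 0.21 (0.047 without R820W A and 0.33 without R820W B), so HIST1H4C went against its list. The other 6 named lower genes were SEMA3D (a secreted semaphorin), LOC100505876, ITGBL1 (a secreted integrin beta-like protein), STEAP2 (a metalloreductase), CCDC112 and NUAK1 (a kinase related to AMPK). Their log2 fold changes ran from -0.67 (NUAK1) to -0.46 (SEMA3D), each with an adjusted p of 0.999. In 2 of the 12 named lower genes the N737H mean lay below the WT mean, and in 3 of the 12 the R820W mean lay above it.

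**Figure D5:**
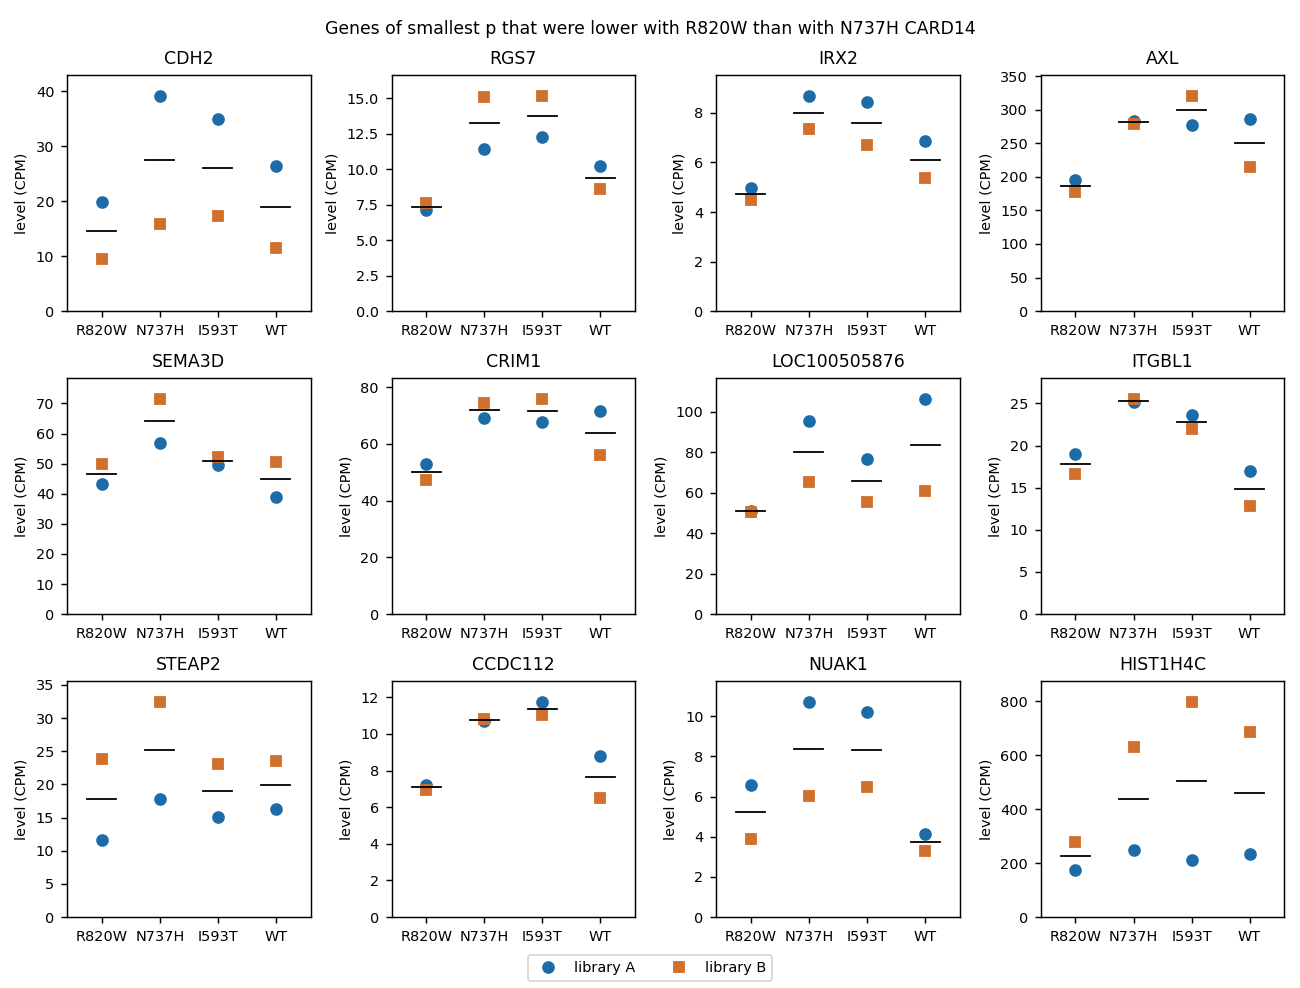
Level in CPM (y axes, from 0) of the 12 named genes with lower levels under R820W, in all 8 libraries, with a symbol for each library by letter and a line at each group's mean. For AXL the 2 R820W libraries (196 and 178 CPM) lie below the 2 N737H libraries (284 and 279 CPM), and for CDH2 the letters differ more than the variants do.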

How the data were processed

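Gene-level read counts were deposited by the authors as 1 table of 8 libraries in whole numbers with no normalization, as the values show. The submitters' processing notes name hg19, FastQC, MACS2 and DESeq2 without roles, and for the aligner, counter, annotation and strand setting: not given in the sources used here. Paralogs and overlapping genes may therefore have divided their common reads in an unknown way. Of 28518 gene rows, 5569 had no count in any library, 27 carried names that look like dates and 2 names occurred more than once. Genes with at least 10 counts in at least 2 of the 4 libraries compared were kept (14480 genes, 99.92% of counts).

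Counts were scaled by TMM and fitted with edgeR 4.0.16 (quasi-likelihood, R 4.3.3) on all 8 libraries with group and letter as terms, which left 3 residual degrees of freedom. R820W was contrasted with N737H, two-sided, with Benjamini-Hochberg adjustment over all 14480 genes and a call at an adjusted p under 0.05. Intervals are at 95%, CPM used normalised library sizes, and differences within a letter used log2 CPM (prior count 2). The code of the fit was run on counts simulated from the fit's own means and spread. Such counts cannot show whether the model holds for these libraries. DESeq2 1.42.0 and limma 3.58.1 served as alternatives.

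Letters paired the libraries as a block. The correlation of deviations from the group means was 0.397 between R820W and N737H, and over the other pairs it ran from 0.00853 (N737H with WT) to 0.428, while the first principal component (33.6% of variance) separated A from B. With 2 libraries per group whose separate origin rests on reading the letters as experiments, p-values reflect only the spread among the libraries themselves, which may be technical. The rule for named genes took CARD14, MYC, the 12 higher and 12 lower genes of smallest p (mean of at least 5 CPM, same direction in A and B), and from each list its called members and its 2 most abundant. Genes named outside it are said to be chosen after their values were seen. Members and gene lists were chosen with earlier results of these data known, so lists are described by counts and medians and are not tested. Some results are not reported here, because they need items withheld for evaluation.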

Additional observations from a re-analysis of the deposited data

How the results depend on the processing

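Values for 106 named genes were compared with 2008 values from alternative fits, of which 1878 kept direction and side of the threshold, 44 gained and 8 lost the call, and 78 in 41 genes changed sign. The count of genes called was 1 with RLE scaling, at least 10 counts in all 4 libraries, limma voom, CARD14 removed before normalization and, chosen after seeing the data, filterByExpr. It was 0 without the replicate block, 92 on the 4 libraries alone with the block, 0 on those libraries without it, 3 without the filter on low counts (CCL4L2, CCL4 and CCL3), 31 with DESeq2 and 0 with paralog rows summed, also chosen after seeing the data. Leaving out 1 library at a time gave 0 to 6. The common biological coefficient of variation was 0.189 with the block, 0.258 without it and 0.131 on the 4 libraries alone with it, and the cause of the other differences was not tested. The 8 losses were all CCL4L2, whose log2 fold change without the replicate block was 2.90 (adjusted p 1.00 in edgeR). Of 44 list medians, 33 kept their sign in every fit, with the fit on summed paralog rows left out of that count.

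In fits of all libraries compared, sign changes were in 4 genes with values near 0. Without the block MMP1 had -0.014 and ISG15 0.037, and on the 4 libraries alone without it -0.0043 and 0.053. On the 4 libraries with the block PHLDA1 had 0.0046, ISG15 0.039 and HSPA8 0.0047. Without the filter PHLDA1 had 0.014, ISG15 0.020 and HSPA8 0.018, with voom ISG15 had 0.020, and with filterByExpr PHLDA1 had 0.000886, ISG15 0.00995 and HSPA8 0.00631. Over the fits that left out 1 library, log2 fold changes ran as follows for the genes that changed sign: TGFA -0.00707 to 0.38, FOSL1 -0.54 to 0.39, DUSP10 -0.0586 to 0.11, PHLDA1 -0.19 to 0.21, MAX -0.35 to 0.20, LDHA -0.0897 to 0.36, F3 -0.34 to 0.0133, CSTA -0.21 to 0.20, S100A11 -0.0904 to 0.28, MMP1 -0.26 to 0.38, ADAM10 -0.0614 to 0.10, PLK2 -0.14 to 0.22, FTH1 -0.00695 to 0.34, IFIT3 -0.15 to 0.30, ISG15 -0.37 to 0.49, SCD -0.00683 to 0.43, RPL7 -0.13 to 0.0772, RPS3 -0.22 to 0.34, ATP5B -0.0663 to 0.41, ATP5A1 -0.17 to 0.25, HSP90AB1 -0.14 to 0.0344, HSPA8 -0.10 to 0.12, HSPA5 -0.00795 to 0.0337, PDIA3 -0.18 to 0.0801, SLC3A2 -0.0323 to 0.21, GAPDH -0.12 to 0.47, MCM7 -0.0468 to 0.34, CCNB1 -0.43 to 0.30, SPTLC1 -0.13 to 0.0212, ELOVL1 -0.0214 to 0.29, SLC7A5 -0.13 to 0.49, NQO1 -0.21 to 0.10, RDH11 -0.10 to 0.25, ALDH1A3 -0.24 to 0.69, CCL22 -0.19 to 1.70, PSMA7 -0.16 to 0.25, PSMB7 -0.17 to 0.24, HIST1H2AC -0.00357 to 0.49, MITF -0.70 to 0.0117, CDH5 -0.20 to 0.67 and PECAM1 -1.46 to 0.27. The smallest standard error among genes of at least 5 CPM was 0.11 and the median was 0.18, which limits how small a difference 2 libraries per group can show.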

Other observations

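Further gene groups showed small differences between R820W and N737H, and 0 of their members passed the edgeR threshold. Each list had 1 to 3 members at an unadjusted p under 0.05, and DESeq2 called 1 gene among them, DHRS9. Of 21 transcription factors of epidermal differentiation, 13 lay above 0 with a median log2 fold change of 0.17. TP63, the epithelial master regulator, had 346 and 440 CPM with R820W against 315 and 376 CPM with N737H (0.18 ± 0.12). Of 15 retinoid metabolism genes, 11 lay above 0 with a median of 0.084, which was -0.041 without N737H B and 0.26 without N737H A. The retinol dehydrogenase DHRS9, named after its values were seen, had 7.31 and 24.9 CPM against 3.40 and 13.5 CPM, a log2 fold change of 1.00 ± 0.19 with an adjusted p of 0.668 in edgeR. Of 8 genes linked to type 2 immunity, 7 lay above 0 with a median of 0.34 (0.19 without N737H B and 0.54 without N737H A), and CCL22, a chemokine of that list, had 20.0 and 87.1 CPM against 24.4 and 25.9 CPM, so that its letters disagreed in sign.

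The metabolic and stress lists had medians between 0.0061 and 0.38, against -0.037 for all genes. Of 28 glycolysis and hypoxia genes, 24 lay above 0 with a median of 0.13, which was 0.00087 when 1 library, N737H B, was left out. The most abundant of them, GAPDH, had 4240 and 4233 CPM with R820W against 4363 and 3344 CPM with N737H. NRF2 antioxidant genes had a median of 0.082 over 23 genes, sterol biosynthesis genes 0.017 over 27, ER chaperone genes 0.0061 over 20 and ATF4 response genes 0.098 over 26. The ATF4 median was -0.032 without R820W A and 0.20 without R820W B, the NRF2 median 0.032 without R820W A or N737H B and 0.15 without N737H A, and the sterol median -0.0065 without N737H B and 0.18 without N737H A. FTH1, the ferritin heavy chain, had 11020 and 12024 CPM against 11146 and 9725 CPM, and the ER chaperone HSPA5 had 5698 and 4243 CPM against 5686 and 4238 CPM. Clade B serpins had a median of 0.22 over 11 genes (0.54 without N737H A) and barrier lipid genes 0.11 over 15. Aryl hydrocarbon receptor targets had a median of 0.38 over 9 genes, which was 0.017 without R820W A.

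SLMO2-ATP5E, a read-through model named after its values were seen, had 38.7 and 6.89 CPM with R820W against 1.13 and 1.46 CPM with N737H, 7.72 and 9.70 CPM with I593T and 3.59 and 8.92 CPM with WT. Its log2 fold change of 4.08 ± 0.89 had an adjusted p of 0.941 in edgeR and was called by DESeq2, and it shares exons with its 2 parent genes, so that its counts depend on how shared reads were assigned.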
